A study of Mus musculus with 12 samples.

Results

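The genes described here are 10 transcripts of the galectin, S100, annexin and cytoskeletal families that effector T cells are known to carry: Lgals1, Lgals3, S100a4, S100a6, S100a10, S100a11, Anxa1, Anxa2, Vim and Crip1. They were taken by symbol from the first deposited gene table. All 10 were found among its 23361 genes, all 10 had a value above 0 in some library, and all 10 were among the 10868 genes tested. The table holds RNA-seq values of mouse regulatory T cells (Tregs), which restrain immune responses, from an autoimmune diabetes model. The 4 groups were wild-type (Wt) Tregs from pancreatic islets, Lag3-deficient (Lag3) Tregs from islets, Wt Tregs from non-draining lymph nodes (NDL) and Lag3 Tregs from NDL, with 3 libraries each. Lag3 encodes an inhibitory receptor of T cells. The labels describe cytoplasmic RNA. The strain, the age and sex of the mice, the Lag3 allele, the cells in which it was deleted and the sorting markers are not stated in the labels used here. No label ties the 3 libraries of a group to different animals, so the p-values below reflect only how much these samples vary, and that variation may be technical. The headers number the libraries of every group 1, 2 and 1, and the libraries are called 1a, 2 and 1b here in that order.

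Galectins are lectins that bind galactose-containing sugars on glycoproteins and act both inside cells and after secretion. Galectin-1, encoded by Lgals1, is known to contribute to suppression by Tregs, and galectin-3, encoded by Lgals3, is a described ligand of the LAG3 protein. S100 proteins are small calcium-binding dimers, annexins bind membrane phospholipids when calcium is present, and S100A10 and annexin A2 (Anxa2) form a heterotetramer at the plasma membrane. Vim encodes vimentin, an intermediate filament protein, and Crip1 encodes a small LIM domain protein. Activated and tissue T cells are commonly described as richer in several of these transcripts than resting lymph node T cells.

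Lgals1 was the member that passed the test between islet and NDL Tregs, at 2.23-fold higher in islets with both genotypes averaged. S100a6, S100a4 and Lgals3 had larger log2 differences in the same direction and wider errors, and did not pass. S100a10, S100a11, Anxa2 and Crip1 had smaller positive differences, and Vim and Anxa1 differences near 0, none of which passed. No member passed the test between Lag3 and Wt Tregs in either tissue. Levels are given in CPM, here the deposited value divided by its column total and put on the usual CPM scale, where 1 CPM is about 15.3 of the authors' rescaled counts. Overlap of libraries was judged on these levels. The tests used log2 levels after a further scaling between libraries (TMM). Folds and errors of the tests therefore need not match the ratios and spreads of the printed CPM.

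The libraries were checked first. Lag3, on chromosome 6 (124904361 to 124911705, minus strand, GRCm38), had values of 40, 48 and 120 rescaled counts in the Wt islet libraries and 1, 0 and 0 in the Lag3 islet libraries. It was at 2, 5 and 6 in Wt NDL and at 1, 0 and 3 in Lag3 NDL, so the check of the genotype labels rests on the islets. The column totals ran from 15232498 to 15370098. They had been brought to a common scale before deposit and do not give the sequencing depth, so no counting interval is given. In 3 libraries (Lag3 islet 2, Wt NDL 2 and Lag3 NDL 1b) at least 1 of the values 1 to 6 was held by only 1 gene, as in counts multiplied up and rounded, against 53 or more genes in the other libraries. Rn45s, a ribosomal RNA precursor, took 1.26% to 1.68% of the total in the 4 libraries called 1b and 0.149% to 0.571% in the other 8. The Treg marker Foxp3 was present in all 12 libraries, from 265 to 799 CPM. Its means were 336 and 373 CPM in Lag3 and Wt islets and 565 and 586 CPM in Lag3 and Wt NDL. By group means Il2ra was also lower in islets, and Ctla4 was higher.

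Summed levels of several marker lists of other cells were higher in most islet libraries than in the NDL libraries, though single markers differed. Of the 14 myeloid markers, 13 were in the table, and their summed level was 80.5 to 260 CPM in the 6 islet libraries and 0.392 to 41.4 CPM in the 6 NDL libraries, without overlap. Of these 13, 5 were tested, all 5 had positive differences, and 1 passed (Cybb, a subunit of the phagocyte NADPH oxidase). A marker near 0 in NDL could pass the filter only through the islet libraries, so the shared direction was largely fixed in advance. Of the 13 markers Cybb had the highest means in islets, 104 and 93.6 CPM in Lag3 and Wt. Its means in Lag3 and Wt NDL were 1.88 and 0.065 CPM. Whether the myeloid sums separate the tissues without Cybb was not tested. The sum of 12 B cell markers was 317 to 1520 CPM in islets and 64.2 to 322 CPM in NDL, and that of 16 exocrine pancreas markers 41.8 to 3349 CPM in islets and 0 to 5.22 CPM in NDL. The sum of 10 CD8 and NK cell markers was 80.5 to 384 CPM in islets and 17.7 to 126 CPM in NDL, and that of 16 endocrine markers 4.44 to 223 and 0 to 1.04 CPM. Nkg7 made up most of the CD8 and NK sum. Its means were 264 and 294 CPM in Lag3 and Wt islets and 83.6 and 25.3 CPM in Lag3 and Wt NDL. In the same order, means were 0.0872, 0.803, 4.97 and 0.631 CPM for Cd8b1. For the B cell marker Cd79b they were 72.6, 28.5, 34.7 and 49.3 CPM, and Pax5 was at 0 in all groups. The sum of 12 stromal and endothelial markers overlapped, at 5.43 to 198 and 6.79 to 123 CPM. S100a8 and S100a9, which mark neutrophils, were at or near 0 in all 12 libraries. Several members, Lgals3, Vim and the annexins among them, are also expressed by macrophages, stromal cells or both. The part of these cells in the differences given here was not tested, and in such bulk samples fewer cells of a type and less RNA per cell cannot be told apart.

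Lgals1 lies on chromosome 15 (78926725 to 78930465, plus strand, GRCm38). Its level was 528, 589 and 504 CPM in Wt islet 1a, 2 and 1b and 585, 574 and 588 CPM in the Lag3 islet libraries. In NDL it was 222, 281 and 286 CPM in Wt and 270.3, 282 and 294 CPM in Lag3. All 6 islet libraries lay above all 6 NDL libraries, with 504 CPM as the lowest islet value and 294 CPM as the highest NDL value. Group means were 540.4 ± 43.9 CPM (SD, n = 3) in Wt islets, 582 ± 7.64 CPM in Lag3 islets, 263 ± 35.8 CPM in Wt NDL and 282 ± 11.6 CPM in Lag3 NDL. On the scaled log2 levels that were tested the spread was wider, and the Lag3 islet libraries ran from 8.92 to 9.4. Islet exceeded NDL by 1.15 on the log2(CPM + 1) scale, averaged over both genotypes (SE 0.26, 95% interval 0.61 to 1.70, adjusted p = 0.0364, limma with Benjamini-Hochberg adjustment over all 10868 tested genes). Within Wt the difference was 1.15 ± 0.37 (SE, adjusted p = 0.33), and within Lag3 it was 1.16 ± 0.37 (SE, adjusted p = 0.321). These did not pass on their own, with 3 libraries a side.

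The averaged call for Lgals1 was near the threshold. It was lost without the 4 libraries called 1b (difference 1.30, adjusted p = 0.0699). It was also lost in 9 of the 12 fits that left out 1 library, where the adjusted p ran from 0.0262 to 0.104 and the difference from 1.04 to 1.24, and was kept only without Lag3 islet 2, Lag3 NDL 1b or Wt NDL 1b. The difference was positive in all 25 alternatives, from 0.957 to 1.30, and passed in 13 of them. After removal of group means, the residual SD of Lgals1 was 0.29 on the log2 scale, and only 6.99% of the 286 tested genes at a like level had a lower one.

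Lgals3, on chromosome 14 (47367751 to 47386160, plus strand), encodes the other member galectin. In Wt islet 1a, 2 and 1b it was at 41.5, 71.0 and 92.8 CPM, and it was at 96.2, 95.2 and 34.3 CPM in the Lag3 islet libraries. In NDL it was at 15.8, 6.90 and 0.392 CPM in Wt and at 19.4, 59.99 and 0 CPM in Lag3. In Wt every islet library lay above every NDL library. In Lag3 the NDL library 2 lay above islet 1b, so those groups overlapped. That NDL library also had the largest summed myeloid level of the NDL libraries, 41.4 CPM, against 0.392 to 19.5 CPM in the other 5. Lyz2 alone made up 36.8 CPM of that 41.4 CPM. In islets the order was the other way for Lag3 islet 1a, which had the highest Lgals3 of all libraries and the lowest summed myeloid level of the islet libraries, 80.5 CPM. The difference between islet and NDL was 3.67 ± 1.30 (SE) on the log2 scale in Wt (adjusted p = 0.428, limma) and 2.85 ± 1.30 in Lag3 (adjusted p = 0.553). Averaged, it was 3.26 ± 0.92 (95% interval 1.34 to 5.18, adjusted p = 0.115). These values rested on few libraries: without Lag3 NDL 1b the difference in Lag3 was 1.22, and without the 4 libraries called 1b the averaged difference was 2.04 (adjusted p = 0.213). The ratio of Lgals1 to Lgals3 ran from 4.70 in Lag3 NDL 2 to 731 in Wt NDL 1b where Lgals3 was above 0, and was 5.43 to 17.1 in the 6 islet libraries.

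**Figure D1:**
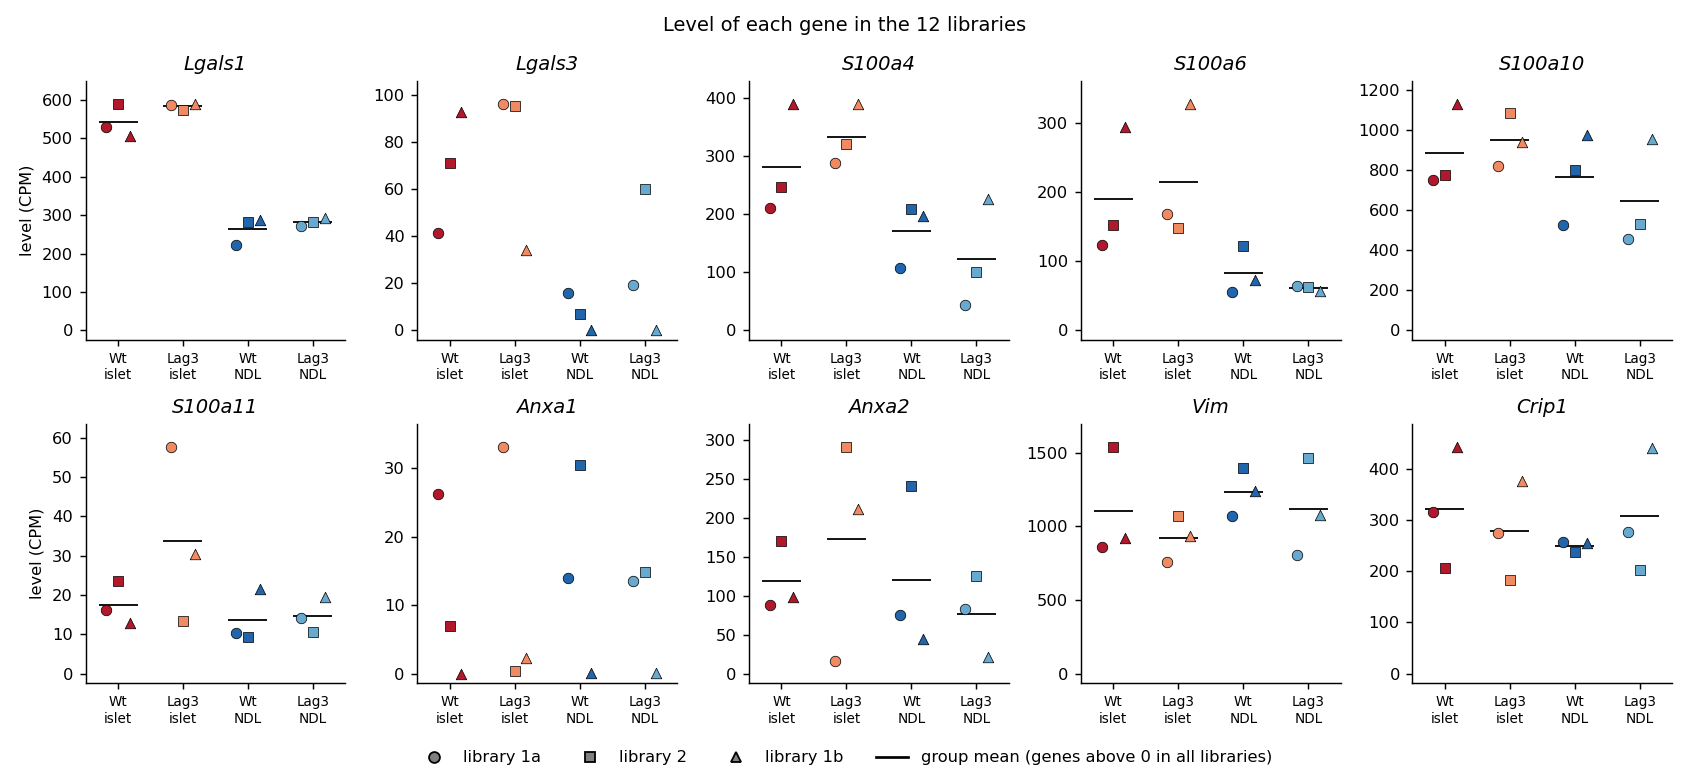
Level of each of the 10 genes in CPM (y axis, linear from 0, scaled for each gene) in the 4 groups (x axis), with points for the libraries 1a, 2 and 1b of each group and lines for the means of 3 libraries where all 12 were above 0. The islet points of Lgals1 (504 to 589 CPM) lie apart from its NDL points (222 to 294 CPM), while those of Vim, Crip1 and Anxa2 overlap.

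The 4 member S100 genes lie on chromosome 3 in the S100 cluster, where 13 of the S100 genes listed here for the family are annotated. S100a4 (90603771 to 90606045) and S100a6 (90612882 to 90624181) are 6.84 kb apart with S100a5 between them, and S100a11 (93520488 to 93526287) and S100a10 (93555080 to 93564643) are 28.79 kb apart, 2896 kb further along. All 4 are on the plus strand. RefSeq promoter windows (GRCm38.p6) were found for 8 of the 10 members, and not for Lgals1 and S100a10. The windows of S100a4, S100a6 and S100a11 are shown because these genes of the cluster had unlike levels and unlike motif content. Each holds the 250 bases before the start in RefSeq, which lies a few bases from the GENCODE start printed above, on the plus strand, and capitals mark matches to the motifs searched.
S100a4, chr3:90603520-90603769: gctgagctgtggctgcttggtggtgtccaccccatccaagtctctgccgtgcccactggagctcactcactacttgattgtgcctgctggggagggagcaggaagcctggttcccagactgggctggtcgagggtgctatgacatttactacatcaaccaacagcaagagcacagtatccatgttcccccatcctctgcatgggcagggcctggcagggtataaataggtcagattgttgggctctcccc
S100a6, chr3:90612644-90612893: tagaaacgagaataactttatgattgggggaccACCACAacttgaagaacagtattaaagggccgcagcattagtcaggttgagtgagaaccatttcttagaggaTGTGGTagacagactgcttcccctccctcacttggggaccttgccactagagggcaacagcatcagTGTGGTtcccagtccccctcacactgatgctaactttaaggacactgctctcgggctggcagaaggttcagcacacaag
S100a11, chr3:93520246-93520495: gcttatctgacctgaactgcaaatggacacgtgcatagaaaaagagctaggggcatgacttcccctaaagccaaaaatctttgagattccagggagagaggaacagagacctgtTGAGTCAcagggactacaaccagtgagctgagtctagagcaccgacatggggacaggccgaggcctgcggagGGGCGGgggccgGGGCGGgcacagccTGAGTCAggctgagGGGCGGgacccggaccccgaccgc

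The motifs were searched on both strands, and none of their matches were removed where they overlapped. The Runx core TGTGGT was found 3 times in the S100a6 window, at 217 bases before the start (minus strand) and at 145 and 79 bases (plus strand), and in none of the other 7 windows. It is held by 14% of 32851 windows of this length over all genes. The AP-1 site TGANTCA was found in 2 of 8 windows, S100a11 (136 and 38 bases before the start) and Anxa2 (95 bases), and in 6.75% of all windows. The SP and KLF core GGGCGG was found in 4 of 8 windows (S100a11, Anxa2, Crip1 and Lgals3) and in 32.7% of all windows. The CRE palindrome TGACGTCA was found in 0 of 8 and in 1.55% of all. The S100a4 window held none of the 4. A match describes letters in this window and shows no binding.

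S100a6, whose product S100A6 (calcyclin) is common in dividing and migrating cells, had levels of 123, 152 and 294 CPM in Wt islets (1a, 2 and 1b) and of 167, 148 and 327 CPM in Lag3 islets. In NDL it was at 54.9, 122 and 72.8 CPM in Wt and at 64.9, 62.9 and 57.0 CPM in Lag3. All 6 islet libraries lay above all 6 NDL libraries, but the edge was narrow: the lowest islet library, Wt islet 1a, was at 123.2 CPM and the highest NDL library, Wt NDL 2, at 122.5 CPM. The averaged difference was 1.53 ± 0.39 (SE, 95% interval 0.72 to 2.35, adjusted p = 0.0686, limma). It was 1.26 ± 0.55 in Wt (adjusted p = 0.589) and 1.81 ± 0.55 in Lag3 (adjusted p = 0.29). S100a6 passed the averaged test in 4 of 25 alternatives, among them median-of-ratios scaling (adjusted p = 0.0479).

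S100a4 encodes a calcium-binding protein that binds non-muscle myosin and is known from memory and migrating T cells. It was at 211, 246 and 389 CPM in Wt islets and at 289, 322 and 390.4 CPM in Lag3 islets. In Wt NDL it was at 107, 208 and 198 CPM, and in Lag3 NDL at 43.3, 101 and 227 CPM. Islets lay above NDL without overlap within each genotype. Across genotypes they overlapped, since Lag3 NDL 1b (227 CPM) exceeded Wt islet 1a (211 CPM). The difference was 0.84 ± 0.59 (SE) in Wt (adjusted p = 0.842, limma), 1.83 ± 0.59 in Lag3 (adjusted p = 0.34) and 1.33 ± 0.42 averaged (adjusted p = 0.184). The annotation holds 1 near copy of S100a4, Gm42674, identical over 60.6% of the transcript and not in the table, so reads could have been shared between them.

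S100a10 encodes the annexin A2 partner also called p11. Its level was 750.4, 776 and 1133 CPM in Wt islets and 822, 1089 and 941 CPM in Lag3 islets, against 526, 802 and 979 CPM in Wt NDL and 458, 531 and 957 CPM in Lag3 NDL. The groups overlapped in both genotypes. The averaged difference was 0.53 ± 0.29 (SE, 95% interval -0.07 to 1.14, adjusted p = 0.509, limma), with 0.34 ± 0.41 in Wt and 0.73 ± 0.41 in Lag3. Without Lag3 NDL 1a the averaged difference was 0.33. Per kb of exon, S100a10 was the highest of the 10 members in all 4 groups, from a mean of 809 CPM per kb in Lag3 NDL to 1185 CPM per kb in Lag3 islets.

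S100a11 encodes a partner of annexin A1 and was the lowest of the 4. It was at 16.3, 23.6 and 12.9 CPM in Wt islets, 57.7, 13.3 and 30.3 CPM in Lag3 islets, 10.2, 9.24 and 21.5 CPM in Wt NDL and 14.1, 10.5 and 19.4 CPM in Lag3 NDL. Lag3 islet 1a was the highest library, and the groups overlapped. The averaged difference was 0.78 ± 0.75 (SE, adjusted p = 0.745, limma), with 0.50 ± 1.06 in Wt and 1.07 ± 1.06 in Lag3. Without Lag3 islet 1a the averaged difference was 0.494. The annotation holds 5 near copies of S100a11, and none was in the table, so its values are uncertain.

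Of the 17 S100 genes listed for the family, which include S100pbp, the gene of an S100P-binding protein, 7 were tested and 0 passed between islet and NDL averaged over both genotypes (limma). All 7 differences were positive, with a median of 1.33, beside a median of -0.04 over all 10868 genes, and without S100pbp 6 of 6 were positive with a median of 1.06. S100a13, in the same cluster, was at 66.95 to 158 CPM with an averaged difference of 0.03 ± 0.38 (SE). S100a1 differed by 2.22 ± 0.92 (adjusted p = 0.349), with 35.1, 16.7 and 22.7 CPM in 3 islet libraries (Lag3 islet 1a, Wt islet 2 and Wt islet 1b) and 0 in the other 3. In NDL S100a1 was at 0.586 CPM or below, so it passed the filter only through islet libraries and its direction was largely fixed. The members among these genes were chosen with earlier results of these data known, so the shared direction is no independent support. S100pbp differed by 2.09 ± 1.00 (adjusted p = 0.445).

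Anxa2, on chromosome 9 (69453620 to 69491795, plus strand), encodes the membrane-binding partner of S100A10. It was at 88.6, 170 and 98.2 CPM in Wt islets and at 16.2, 292 and 212 CPM in Lag3 islets. In NDL it was at 75.8, 241 and 44.2 CPM in Wt and at 83.6, 126 and 21.4 CPM in Lag3. The lowest and the highest value of all 12 libraries lay within the Lag3 islet group, and the tissues overlapped. The averaged difference was 0.61 ± 0.61 (SE, 95% interval -0.66 to 1.89, adjusted p = 0.756, limma). It was 1.21 without Lag3 islet 1a and 0.225 without Lag3 islet 2, the extremes when 1 library was left out, and -0.159 without the 4 libraries called 1b. The ratio of S100a10 to Anxa2 in CPM ran from 3.33 in Wt NDL 2 to 50.9 in Lag3 islet 1a, and was 44.8 in Lag3 NDL 1b. The transcripts of the heterotetramer partners did not keep a constant ratio in these libraries.

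Anxa1, on chromosome 19 (20373428 to 20390944, minus strand), encodes an annexin known for limiting inflammation. It was at 26.2, 6.90 and 0 CPM in Wt islets, 33.1, 0.392 and 2.23 CPM in Lag3 islets, 13.96, 30.5 and 0.131 CPM in Wt NDL and 13.6, 14.8 and 0.0653 CPM in Lag3 NDL. The 4 libraries called 1b held 0 to 2.23 CPM, and in 3 of the 4 groups 1b was the lowest. The averaged difference was -0.16 ± 1.20 (SE, 95% interval -2.67 to 2.34, adjusted p = 0.975, limma). Of the 12 annexins listed, 7 were tested and 0 passed, with a median of 0.03 and 4 of 7 positive. Anxa4 differed by 1.91 ± 1.11 (adjusted p = 0.541), Anxa11 by 0.66 ± 0.87, Anxa5 by -0.28 ± 0.41 and Anxa6 by -0.38 ± 0.33.

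Vim, on chromosome 2 (13573927 to 13582826, plus strand), had the highest mean CPM of the members in 3 of the 4 groups, without regard to length, and S100a10 had it in Lag3 islets. It was at 858, 1539 and 922 CPM in Wt islets and at 760.4, 1072 and 936.5 CPM in Lag3 islets. In NDL it was at 1072, 1393 and 1243 CPM in Wt and at 804, 1466 and 1077 CPM in Lag3. The tissues overlapped, and the averaged difference was -0.11 ± 0.26 (SE, 95% interval -0.66 to 0.43, adjusted p = 0.917, limma). That interval does not reach the 1.15 measured for Lgals1, although the difference between the genes was not itself tested.

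Crip1, on chromosome 12 (113146316 to 113153879, plus strand), was at 315, 206 and 442 CPM in Wt islets and 275, 182 and 376 CPM in Lag3 islets. It was at 256, 237 and 254 CPM in Wt NDL and 277, 203 and 441 CPM in Lag3 NDL. Library 2 was the lowest of each group and 1b the highest of 3 groups. The averaged difference was 0.19 ± 0.34 (SE, adjusted p = 0.879, limma), and 0.0526 to 0.417 when 1 library was left out. Of 30 listed genes of the cytoskeleton and cell shape, Vim included, 30 were tested and 0 passed, with 16 positive and a median of 0.09. Tuba1b, a tubulin, differed by 0.82 ± 0.26 (adjusted p = 0.19) without overlap between the tissues, Tubb5 by 0.80 ± 0.26, Myl6, a myosin light chain, by 0.55 ± 0.23, and Lmnb1, lamin B1, by 2.03 ± 0.85. Of 16 LIM domain genes, 14 were tested and 0 passed, with 6 positive and a median of -0.13. Fhl2 differed by 2.5 ± 1.01 (adjusted p = 0.333), Pdlim2 by -1.28 ± 0.56, Limd2 by -0.58 ± 0.25 and Lims1 by -0.55 ± 0.36.

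**Figure D2:**
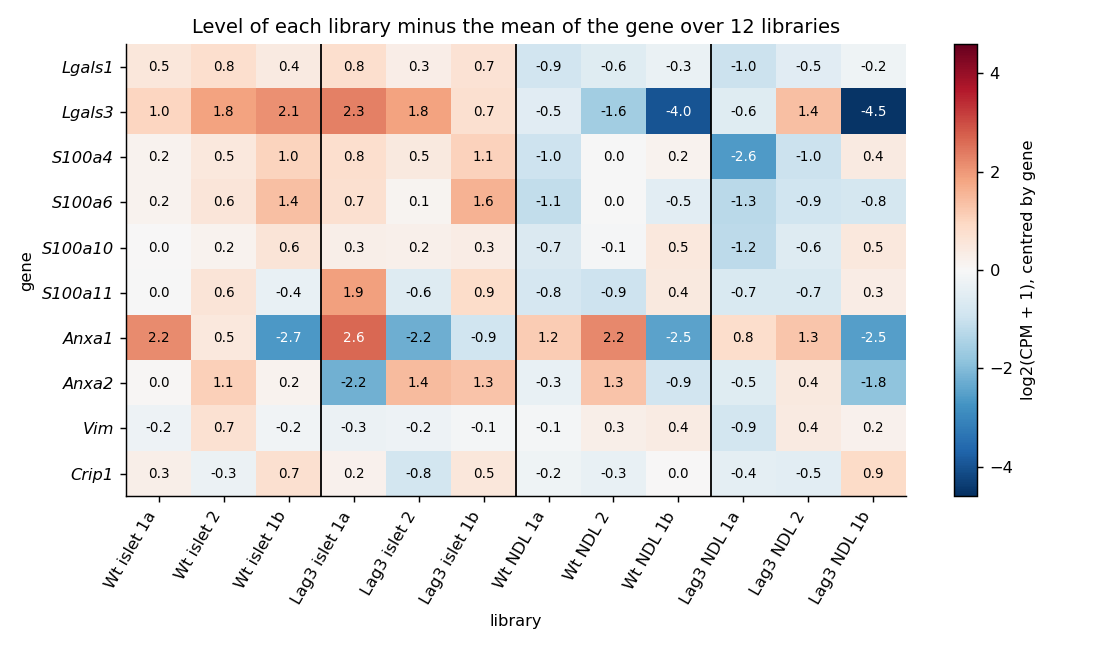
log2(CPM + 1) after TMM scaling for each gene (rows) and library (columns), as the difference from the mean of the gene over the 12 libraries, with vertical lines between the groups. Red is above and blue below that mean: the row of Lgals1 is positive in all 6 islet libraries and negative in all 6 NDL libraries, while that of Anxa1 is low in the libraries called 1b.

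The galectin list holds 11 genes, Lgals1, Lgals3 and the galectin-binding Lgals3bp among them. Of these 8 were tested and 1 passed, Lgals1, with 6 positive and a median of 1.04, and without Lgals3bp 5 of 7 were positive with a median of 1.15. Lgalsl, a galectin-like gene, differed by 3.15 ± 1.05 (SE, adjusted p = 0.212, limma). It was at 42.2, 104 and 2.88 CPM in Wt islets and 19.6, 1.31 and 25.1 CPM in Lag3 islets, against 0.0651 to 6.02 CPM in the 6 NDL libraries. The tissues overlapped through Lag3 islet 2 and Wt islet 1b. Lgals7 differed by 1.37 ± 0.63 (adjusted p = 0.422), Lgals8 by -1.23 ± 0.57 (adjusted p = 0.421) and Lgals4, which is typical of gut epithelium, by -1.90 ± 0.89 (adjusted p = 0.432). Lgals7 was at 0.0652 CPM or below in NDL, so it passed the filter only through islet libraries and its direction was largely fixed. Of 20 listed partners and receptors of these proteins, 16 were tested and 0 passed, with 10 positive and a median of 0.19. P4hb, protein disulfide isomerase, which binds galectin-9 at the T cell surface, differed by 1.12 ± 0.36 (adjusted p = 0.188) without overlap between the tissues. Pdcd6ip differed by 0.59 ± 0.43 and Ager, the receptor RAGE, by -1.32 ± 0.71.

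**Figure D3:**
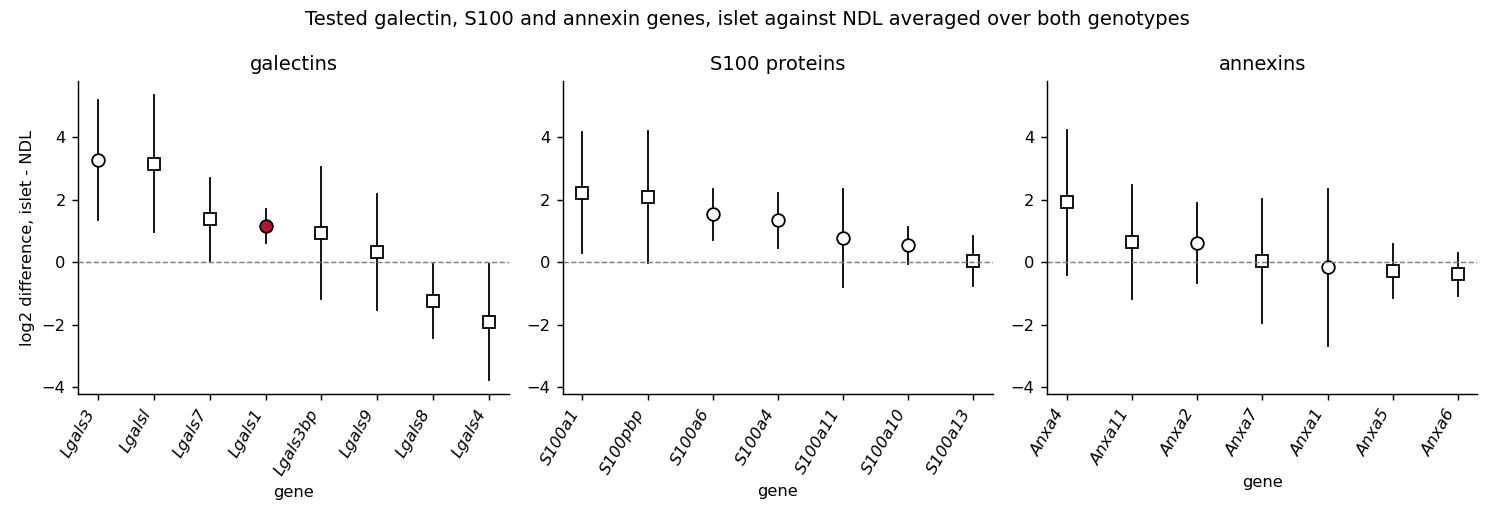
Log2 difference between islet and NDL Tregs, averaged over both genotypes (y axis), of every tested gene of the galectin, S100 and annexin lists (x axis), with 95% intervals. Circles are members, squares other family genes, and the filled circle is Lgals1, the gene that passed: 7 of 7 genes of the S100 list and 6 of 8 of the galectin list lie above 0, and 4 of 7 annexins, where the lists include the binding proteins S100pbp and Lgals3bp. S100a1 and Lgals7 passed the filter only through islet libraries.

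Over the 10 members, 0 passed between islet and NDL in Wt (background 0.184% of all tested genes) and 0 in Lag3 (background 0.12%), by limma and by limma with voom weights. At an unadjusted p under 0.05 there were 3 members in Wt, beside 7.53% of all tested genes, and 4 in Lag3, beside 8.71%. Of the 10, 8 were positive in Wt with a median of 0.45, beside a median of 0.10 over all genes, and 7 were positive in Lag3 with a median of 0.95, beside -0.15. All 3 islet libraries lay above all 3 NDL libraries for 4 members in Wt (Lgals1, Lgals3, S100a4 and S100a6), where 7.2% of all tested genes did, and for 3 in Lag3 (Lgals1, S100a4 and S100a6), where 4.54% did. Averaged over both genotypes, which uses the same 12 libraries, 1 of 10 passed (background 0.92%, 89 genes higher and 11 lower), and 8 were positive with a median of 0.70, beside -0.04. All 6 islet libraries lay above all 6 NDL libraries for 2 members, Lgals1 and S100a6, where 1.17% of all tested genes did. The members were chosen with earlier results of these data known, so shares above the background are no independent result.

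**Figure D4:**
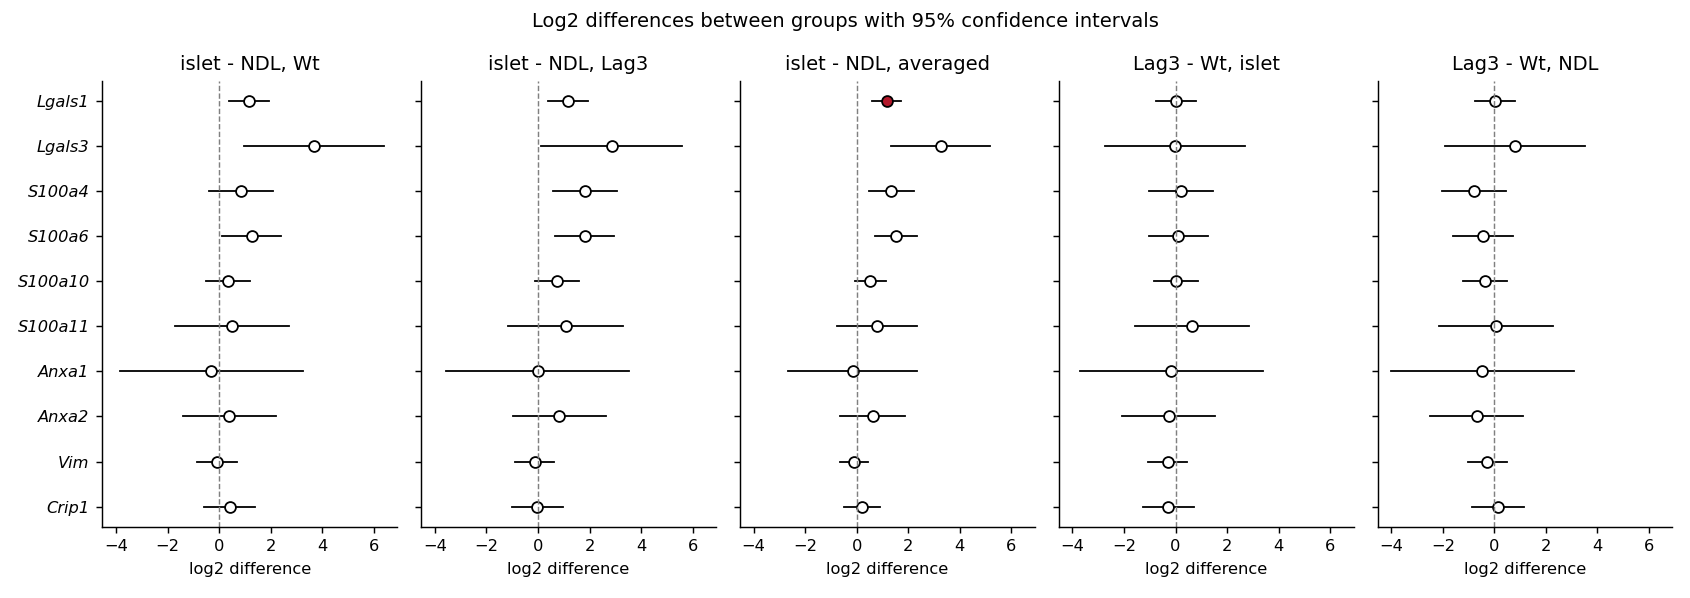
Log2 difference of each of the 10 genes (rows) in 5 comparisons (panels), with 95% intervals and a dashed line at 0. The filled point is the member that passed, Lgals1 between islet and NDL averaged over both genotypes, and the intervals of all 10 genes include 0 in both comparisons of Lag3 with Wt.

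The comparison of Lag3 with Wt Tregs asks whether loss of Lag3 went with a change of these transcripts. In islets 0 of 10 members passed (background 0%), 0 had an unadjusted p under 0.05, and all adjusted p-values were 0.983 or above (limma). Lag3 itself, at -2.39 ± 0.62 (SE) and without overlap, did not pass either (adjusted p = 0.85). It passed the filter only through the Wt islet libraries, so its direction was largely fixed. Its means were 4.5 CPM in Wt and 0.0218 CPM in Lag3 islets, where the 1 CPM added before the log narrows the difference. It is therefore no measure for members at higher levels. No member separated the genotypes without overlap, where 9.3% of all tested genes did. Lgals1 differed by 0.03 ± 0.37 (SE, 95% interval -0.74 to 0.80), S100a10 by 0.03 ± 0.41 and S100a6 by 0.10 ± 0.55. S100a4 differed by 0.20 ± 0.59 and Vim by -0.31 ± 0.37 (95% interval -1.08 to 0.46). The intervals were wide, -1.05 to 1.44 for S100a4 for instance, and the data do not show that the genotypes were alike. The median over the members was 0.01, beside -0.22 over all genes.

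In NDL 0 of 10 members passed between the genotypes (background 0%), 0 had an unadjusted p under 0.05, and 0 separated them without overlap, where 7.28% of all tested genes did. S100a4 differed by -0.79 ± 0.59 (SE, 95% interval -2.03 to 0.45, adjusted p = 1, limma) and S100a6 by -0.44 ± 0.55. For S100a4 this rested on Lag3 NDL 1a, at 43.3 CPM: without it the difference was 0.03. The median over the members was -0.31, beside -0.02 over all genes. The genotype difference was also compared between the tissues. It differed by 0.99 ± 0.84 for S100a4 (95% interval -0.77 to 2.75), by 0.54 ± 0.78 for S100a6 and by 0.39 ± 0.58 for S100a10. Of the 10 members 0 passed (background 0%) and 0 had an unadjusted p under 0.05.

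Per kb of exon, which allows levels to be ordered between genes, the order in Wt islets was S100a10 (1105 CPM per kb), Lgals1 (676), S100a4 (567), Vim (504), Crip1 (445), S100a6 (234), Anxa2 (82.3), Lgals3, S100a11 and Anxa1. In Wt NDL it was S100a10 (959 CPM per kb), Vim (564), Crip1 (345), S100a4 (343), Lgals1 (329), S100a6 (103) and Anxa2 (83.1), with S100a11, Anxa1 and Lgals3 last. By its group means Lgals1 was at rank 2 in Wt and Lag3 islets, at rank 5 in Wt NDL and at rank 4 in Lag3 NDL. The neighbours from Lgals1 to Crip1 in Wt islets, and from Crip1 to Lgals1 in Wt NDL, lay within the spread of their libraries. In Wt islets S100a4 ranged from 424 to 781 CPM per kb, which holds the range of Lgals1 (630.1 to 737), and in Wt NDL from 214 to 419 CPM per kb. In Lag3 islets the range of S100a4 (580 to 784 CPM per kb) also held that of Lgals1 (717 to 735), so the rank 2 of Lgals1 is within that spread.

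The genes whose pattern was most like the mean of the 10 members were found by the root mean square (RMS) difference of centred log2 levels over the 12 libraries, among 5204 candidates. Members, predicted genes, and immunoglobulin, T cell receptor and ribosomal protein genes were left out of the candidates. Snrpd1, a core protein of spliceosomal particles, was the closest (RMS 0.233), followed by Larp7 (0.259), Cggbp1, Dnaja1, Hspa5, Eif3h, Cct7, Cycs, Sla (0.318) and H2afy. Sla, an adaptor that dampens antigen receptor signalling, differed by 1.25 ± 0.26 between islet and NDL averaged over both genotypes (adjusted p = 0.0191, limma) and Hspa5, an endoplasmic reticulum chaperone, by 0.84 ± 0.25 (adjusted p = 0.134), both without overlap. The other 8 overlapped. Lgals1 itself had an RMS of 0.333. These values describe likeness over libraries that share their tissue and scaling. The mean of the members was higher in islets. Genes picked for likeness to it will tend to be higher there too, so their tissue differences are no independent result.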

How the data were processed

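RNA of 12 libraries, 3 in each of 4 groups, was measured. Per the submitters' processing notes TopHat2, DESeq2 and the build mm10 were used, without versions or roles. The first table deposited by the authors holds a signal, rescaled counts, and the second deposited table a quantile-like signal for 10317 genes, including all 10 members. Header names gave the group but not which sample of it. Values of the first table were divided by column totals to CPM, scaled by the trimmed mean of M-values (TMM, trimming 30% and 5%), and tested as log2(CPM + 1) with limma 3.58.1 in R 4.3.3 (mean-variance trend, 4-group model, 8 residual degrees of freedom). A gene was tested where 3 or more libraries had 10 or more rescaled counts, with an adjusted p threshold of 0.05. The raw counts needed for a count model were not used here. The members and lists were chosen with earlier results of these data known. The text names the members, up to 4 genes of each family list with the smallest averaged p, and the 10 most alike genes with a mean log2 level of at least 4. Positions are from GENCODE M21 and promoters from RefSeq GRCm38.p6. Other scalings, filters, pseudocounts, the second table, a batch term and leaving out libraries were tried.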

Additional observations from a re-analysis of the deposited data

How the results depend on the processing

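The count of members that passed between islet and NDL averaged over both genotypes was 1. It was 0 with no filter (21708 genes tested), 0 in the second deposited table, 0 without the 4 libraries called 1b, 2 with median-of-ratios scaling and 2 with those 4 as a batch term (Lgals1 and S100a6 both times), 3 without the 3 libraries scaled up (also S100a4), and 0 to 2 when 1 library was left out. S100a4 joined Lgals1 without Lag3 NDL 1b, and S100a6 without Lag3 islet 2. In the other 5 comparisons 0 members passed under every alternative run. Over all genes, 100 passed the averaged comparison, 40 with no filter, 45 without the libraries called 1b, 151 with voom weights, and 65 to 109 when 1 library was left out. In Wt alone 20 passed (8 to 54 over the alternatives, 11 with the replicate block), in Lag3 alone 13 (7 to 32). Between genotypes in islets 0 passed, but 16 did without Lag3 islet 1b, none of them a member.

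Of 800 alternatives for 32 differences, 762 kept their direction and side of the threshold and 20 reversed. In 12 a pass was lost and in 6 a pass was gained. Nearly all of these differences had not passed to begin with, so the 762 say little about the call that did. That call, averaged Lgals1, passed in 13 of 25 alternatives. None of the reversed differences had passed. Averaged,  Anxa1 was 0.197 without the 3 scaled-up libraries, Anxa2 -0.159 and Vim 0.0102 without the libraries called 1b. When 1 library was left out, averaged Anxa1 ran from -0.866 to 0.497 and Vim from -0.314 to 0.0119. Between genotypes in islets, Lgals1 ran from -0.0727 to 0.144, S100a4 from -0.000641 to 0.529, S100a6 from -0.28 to 0.547 and S100a10 from -0.087 to 0.3, and S100a4 in NDL from -1.52 to 0.0284. The cause was not tested.

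With TMM, median-of-ratios and no further scaling, the median averaged difference of all genes was -0.04, -0.02 and -0.14. Relative to it, Lgals1 was 1.19, 1.21 and 1.18 and S100a6 1.57, 1.59 and 1.56. Correlations between same-numbered libraries of different groups were taken over 10868 genes after removal of gene means and group means. They describe shared deviations, not likeness of whole profiles, and ran from -0.086 to 0.157. Among libraries of the other groups, 9 of 12 libraries correlated best with a library of their own number. That is a hint from the data and not the design, and the number was not taken as a pairing. With the number as a replicate block, 1 member passed, Lgals1. Sequencing depth is unknown.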

Other observations

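The libraries called 1b, whose number repeats in the headers, took the same place in several groups for some members. They were the highest of 3 of 4 groups for Lgals1, S100a4, S100a10 and Crip1, and the lowest of 3 of 4 for Anxa1 and Lgals3. For S100a6 and S100a11 they were the highest of 2 groups and the lowest of 1. For Anxa2 they were the lowest of 2, and for Vim neither in any group. How many of all tested genes show such places was not counted. In NDL, Lgals3 was at 0.392 and 0 CPM in the libraries called 1b and at 6.90 to 59.99 CPM in the other 4. Lgals9, which encodes galectin-9, was at 0.457 CPM in Lag3 NDL 1b and at 10.7 to 209 CPM in the rest. These values are given without an explanation.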
